A study of Mus musculus with 6 samples.

Results

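The mRNAs of Gdf15, of the activin and inhibin subunits and of their close relatives were examined in Lewis cells, a mouse lung carcinoma line, after SD70, an inhibitor of the histone demethylase KDM4C. The 10 genes are the ligands Gdf15, Inhbe, Inhba, Inhbb, Tgfb1, Tgfb2 and Tgfb3, the secreted antagonists Fst and Fstl3, and the activin type I receptor Acvr1b. They were chosen by name with the SD70 response of the family already known, above all that of Gdf15 and Inhbe, so their differences between SD70 and DMSO are described here without p-values. Of the 10, 9 had a row among the 16081 genes in the files, the level of Inhbb was not analysed here, and 7 had enough reads to be fitted. RNA-seq covered 6 samples, all of unmodified Lewis cells, 3 kept for 24 hours with DMSO (the vehicle) and 3 with SD70 for the same time. The SD70 dose of this experiment is not given in the sources used here, and the cells are 1 line grown alone in culture. The labels do not say whether the 3 samples of a group came from separate cultures, and the study's methods speak of independent repeats for its experiments in general only. The p-values therefore measure the spread between these samples, part of which may be technical.

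Ligands of the TGF-beta superfamily are made as precursors that are cut to release a carboxy-terminal dimer. Activins are dimers of inhibin beta subunits. They bind type II receptors, which recruit the type I receptor encoded by Acvr1b, and the signal passes to SMAD2 and SMAD3. Follistatin, encoded by Fst, and its relative encoded by Fstl3 bind activins outside the cell and keep them from the receptors. GDF15 is a distant member that many stressed cells and tumours secrete, and it is known for lowering appetite through GFRAL, a receptor of the hindbrain that signals with RET. TGF-beta is best known in tumours for restraining immune cells and for driving mesenchymal traits.

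The libraries held from 15276744 to 17060424 reads, and from 14062 to 14105 genes had a read in each. Within a group no pair of libraries was as alike as sampling noise would give. Of 6 epithelial markers, Krt8 averaged 146 FPKM (fragments scaled to gene length and library size, a scale that allows genes of different length to be compared) with DMSO and 97.8 with SD70, whereas Krt7, Krt19, Epcam and Cdh1 had at most 1 read in any library. Krt18 averaged 4.32 FPKM under DMSO and 1.81 under SD70. Of 6 fibroblast markers, Col3a1 went from 144 to 123 FPKM, Dcn from 36.2 to 31.2, Pdgfra from 16.7 to 8.11 and Pdgfrb, in the other direction, from 6.56 to 18.6, while Lum stood near 1 FPKM and Col1a2 at 0.0400 and 0.0767 FPKM. Of 8 immune markers, Cd68, a lysosomal gene of macrophages, averaged 13.6 FPKM under DMSO and 9.60 under SD70, Lyz2 0.840 and 1.44, S100a8 1.13 and 1.15, and Cd79a 0.697 and 0.387, and Ptprc, Coro1a, Csf1r and Fcer1g had at most 4 reads in a library. Of 4 endothelial markers, Cdh5 had from 56 to 65 reads and Pecam1, Kdr and Tek at most 4. The summed normalized counts of the 6 epithelial markers ran from 3916 to 4107 under DMSO and from 2572 to 2896 under SD70, and those of the 6 fibroblast markers from 15946 to 16152 and from 13771 to 14903. The 8 immune markers summed to between 266 and 277 and to between 191 and 224, and the 4 endothelial ones to between 56.5 and 66.2 and to between 62.5 and 78.1. Their part in the members' differences was not tested. RNA was measured in bulk, so a change in the number of cells that express a gene cannot be told apart from a change in RNA per cell.

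The windows before the start sites of Gdf15 and Inhbe are shown because these 2 members had the largest differences. Both genes lie on the minus strand. Sequences are from RefSeq on GRCm38.p6, 5′ to 3′ along the gene, and end at the base before the annotated gene. Capitals mark a match to one of the 5 motifs searched on both strands, which were TGANTCA (the AP-1 site), TGACGTCA (the cAMP response element), TGATGCAA (the core of C/EBP-ATF elements), CACGTG (the E-box) and TATAAA (the TATA box).
Gdf15, chr8:70632471-70632706: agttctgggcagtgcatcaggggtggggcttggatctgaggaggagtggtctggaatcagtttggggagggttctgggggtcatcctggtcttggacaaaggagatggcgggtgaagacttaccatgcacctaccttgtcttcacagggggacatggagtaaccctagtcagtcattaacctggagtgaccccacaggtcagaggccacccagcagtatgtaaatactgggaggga
Inhbe, chr10:127351849-127352098: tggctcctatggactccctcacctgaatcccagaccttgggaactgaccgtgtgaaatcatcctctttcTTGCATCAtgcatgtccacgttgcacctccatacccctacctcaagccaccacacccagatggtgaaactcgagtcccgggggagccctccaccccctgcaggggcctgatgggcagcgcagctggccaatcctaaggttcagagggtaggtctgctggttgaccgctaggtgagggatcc

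In the Inhbe window TGATGCAA is present on the strand opposite the gene, written TTGCATCA in the line above, from 181 to 174 bases before the start site, at chr10:127352022-127352029. The same letters are held by 0.791% of the 32851 RefSeq windows of 250 bases before a start site. The first Gdf15 start site lies inside the annotated gene, so the printed window of 236 bases stops 14 bases short of it. Neither the printed window nor the full 250 bases before that site hold any of the 5 motifs. RefSeq gives Gdf15 a second start site, further inside the annotated gene. The 250 bases before that one hold CACGTG from 83 to 78 bases before the start, at chr8:70632173-70632178, a motif of 6.02% of all windows. Windows were found for 8 of the 10 members and 6 of them held a match. Besides Gdf15 and Inhbe, these were Tgfb2 with CACGTG and TATAAA, Fstl3 and Inhba with TATAAA, and Acvr1b with CACGTG. The TATA box motif stands in 12.4% of all windows, TGANTCA in 6.75% and TGACGTCA in 1.55%, and neither of the last 2 was found in the windows of the members. No match overlapped another. A match describes the letters of a window and says nothing of what binds there.

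Gdf15 was the member with the highest level under SD70, and its fold difference and that of Inhbe, which lay within the error of each other, were the largest. Its gene (NCBI Gene 23886) spans chr8:70629393-70632470 of GRCm38. It had 157, 147 and 162 reads in the DMSO libraries and 1782, 2044 and 2280 in the SD70 libraries. The lowest SD70 library thus held more than 10 times the reads of any DMSO library, and the groups lay far apart. After scaling to a common library size (normalized counts), Gdf15 averaged 2116 ± 358 under SD70 against 150 ± 6.69 under DMSO (SD, n = 3 per group). The log2 fold change was 3.81 (standard error 0.148), or 14.0-fold. Per total reads, the ratio was 13.6, with a 95% interval from counting error alone of 12.4 to 15.0. In each fit that left out 1 sample, the log2 fold change was between 3.67, without SD70 replicate 3, and 3.91, without SD70 replicate 1.

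The SD70 samples differed from each other in Gdf15 more than in most genes. Their normalized counts were 1808, 2030 and 2508, the highest in replicate 3, which was also the smallest library. The coefficient of variation was 16.9% with SD70 and 4.45% with DMSO. Among the 3157 genes within a factor of 2 of the SD70 level of Gdf15 the median was 4.40%, and 10 had a larger value. With DMSO the median among 2200 genes of like level was 7.64%, and 1701 had a larger value than Gdf15. The part of library size or handling in the wide spread with SD70 was not tested.

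**Figure D1:**
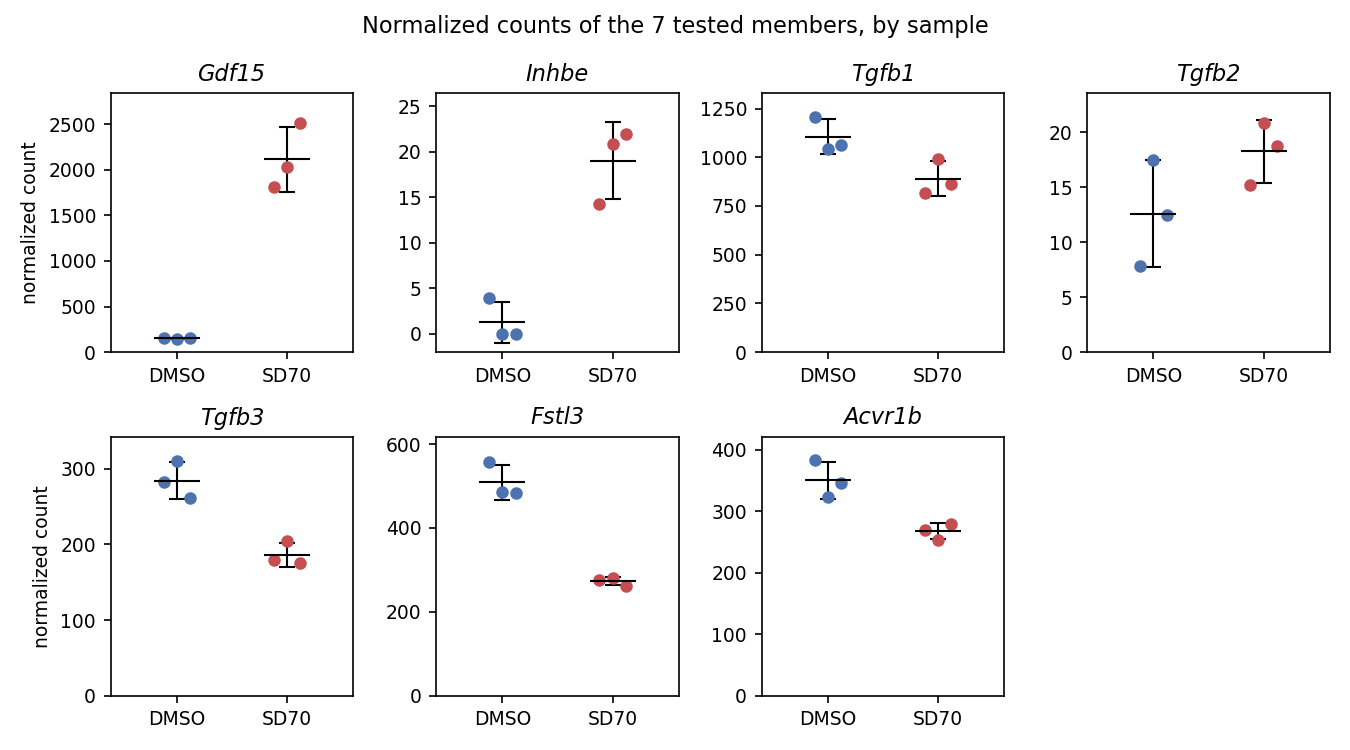
Normalized counts (vertical axes, each starting at or just below 0) of the 7 members with enough reads, with 1 point per sample, DMSO in blue and SD70 in red, the mean as a horizontal bar and the SD as error bars (n = 3). The SD70 samples of Gdf15 (1808 to 2508) and Inhbe (14.2 or more) lie above all DMSO samples, those of Tgfb1, Tgfb3, Fstl3 and Acvr1b lie below them, and those of Tgfb2 overlap.

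The inhibin beta subunit genes Inhbe, Inhba and Inhbc were scarce in both groups. Inhbe (NCBI Gene 16326, chr10:127349402-127351848) encodes the beta E subunit, which is best known from liver. It had 4, 0 and 0 reads with DMSO and 14, 21 and 20 with SD70, so every SD70 library was above every DMSO library. Per total reads, the 55 reads with SD70 against 4 with DMSO are a ratio of 14.3, with an exact 95% interval from counting error alone of 5.28 to 54.3. The fitted log2 fold change was 3.75 (standard error 0.580). All 4 DMSO reads came from replicate 1. Without it the DMSO libraries held 0 reads. Taking 3 counts over the 2 remaining libraries as the most that 0 reads allow, the ratio is then 12.7 or more. This takes the 55 SD70 reads as exact and leaves out the only DMSO library with reads, so it is no confidence limit. Inhbe passed the filter on low counts through its SD70 libraries alone. Even with SD70 it stood at 0.577 ± 0.129 FPKM (SD, n = 3).

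Inhba (NCBI Gene 16323, chr13:16004256-16031609), the beta A subunit of activin A, had 0, 1 and 0 reads with DMSO and 0, 1 and 1 with SD70. Fst (NCBI Gene 14313, chr13:114452262-114458989) had 0 reads in the DMSO libraries and 1, 0 and 0 in the SD70 libraries. For a library with 0 reads, 3 counts would correspond to at most 0.121 FPKM of Inhba or 0.0651 FPKM of Fst. A difference between SD70 and DMSO in either gene was not detectable at this depth. The alpha subunit Inha, which pairs with a beta subunit to form inhibin, averaged 49.1 ± 4.62 normalized counts under DMSO and 41.9 ± 4.98 under SD70 (SD, n = 3 per group; adjusted p = 0.325 from edgeR). The beta C subunit Inhbc, the neighbour of Inhbe on chromosome 10, averaged 0 and 0.698 normalized counts.

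The TGF-beta ligands ran opposite to Gdf15, apart from Tgfb2. Tgfb1 (NCBI Gene 21803, chr7:25687002-25705077) encodes the main TGF-beta of most tissues. It had 1240, 1073 and 1109 reads with DMSO and 806, 998 and 783 with SD70. The 3 SD70 libraries were below the 3 DMSO libraries, although replicate 2 with SD70 came near them after scaling, at 991 against 1042 normalized counts. The means were 1105 ± 90.4 and 890 ± 90.1 (SD, n = 3 per group), so the log2 difference was -0.31 (standard error 0.0691). Leaving out 1 sample gave values between -0.39, without SD70 replicate 2, and -0.24, without DMSO replicate 1.

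Tgfb3 (NCBI Gene 21809, chr12:86056743-86079041), a ligand with roles in palate and wound repair, had 290, 319 and 272 reads with DMSO and 177, 206 and 159 with SD70. The groups did not overlap, at 284 ± 24.5 and 186 ± 15.9 normalized counts (SD, n = 3 per group), and the log2 fold change was -0.61 (standard error 0.0991). Tgfb2 (NCBI Gene 21808, chr1:186622787-186709697) had far fewer reads, 8, 18 and 13 with DMSO and 15, 21 and 17 with SD70. These groups overlapped, and the log2 fold change of 0.53 had a standard error of 0.326. Without DMSO replicate 1 it was 0.29, and without DMSO replicate 2 it was 0.83.

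Of the follistatin genes Fst and Fstl3, these cells expressed Fstl3. Fstl3 (NCBI Gene 83554, chr10:79777274-79782630) had 571, 500 and 505.1 reads with DMSO and 272, 282 and 238 with SD70. Every SD70 library was below every DMSO library, at 273 ± 9.57 against 509 ± 41.2 normalized counts (SD, n = 3 per group). The log2 fold change was -0.90 (standard error 0.0811), or 1.86-fold lower, and lay between -0.94 and -0.83 with 1 sample left out. Fstl3 shares 1157 bases with Prss57 in the annotation, and Prss57 averaged 0.931 normalized counts with DMSO and 0.338 with SD70. The receptor gene Acvr1b (NCBI Gene 11479, chr15:101174072-101213684) had 393, 333 and 360 reads with DMSO and 266, 255 and 253 with SD70. It was lower in all SD70 libraries, with 351 ± 30.1 and 267 ± 12.8 normalized counts (SD, n = 3 per group) and a log2 fold change of -0.39 (standard error 0.0866).

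Genes were called in the whole table at an adjusted p-value under 0.01 from edgeR's quasi-likelihood test together with a change of 1 or more on the log2 scale, up or down. Of the 7 members with enough reads, 2 were called, Gdf15 and Inhbe, both higher. Of all 11552 genes tested, 5.90% were called, 3.29% higher and 2.61% lower. On the adjusted p-value alone 6 of the 7 passed, 2 higher and 4 lower, where 49.9% of all genes did, 25.8% higher and 24.2% lower. The groups did not overlap in 6 of the 7 members and in 64.4% of all genes tested. Nothing is read from these counts, since the members were chosen with this comparison known.

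**Figure D2:**
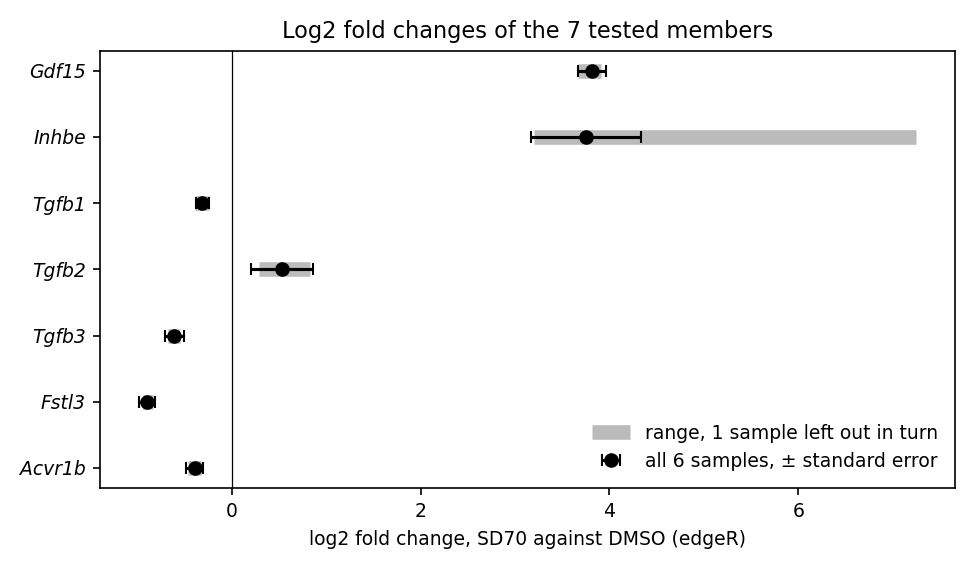
Log2 fold changes of the 7 members with enough reads (horizontal axis, SD70 against DMSO), with points for the fit of all 6 samples, error bars for the standard error and grey bars for the range with 1 sample left out in turn. Gdf15 (3.81) and Inhbe (3.75) lie far to the right of 0, and the grey bar of Inhbe ends at 7.25, a fitted value against 0 DMSO reads that is no measured fold.

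The order of the members by level changed at the top. On the FPKM scale with DMSO, Tgfb1 was highest at 33.7 ± 2.84, followed by Fstl3 at 17.4 ± 1.48, Gdf15 at 10.0 ± 0.396, Acvr1b at 6.90 ± 0.587 and Tgfb3 at 5.41 ± 0.486 (SD, n = 3 per group). The samples of neighbours in this order did not overlap. Below them Tgfb2, Inhbe, Inhba and Fst were all at 0.240 FPKM or less, and each of these neighbours overlapped the next in DMSO. With SD70, Gdf15 came first at 139 ± 24.4 FPKM, followed by Tgfb1 at 26.6 ± 2.68, Fstl3 at 9.15 ± 0.297, Acvr1b at 5.14 ± 0.248 and Tgfb3 at 3.46 ± 0.297 (SD, n = 3 per group). Inhbe, at 0.430 to 0.670 FPKM, then stood above Tgfb2, at 0.200 to 0.270 FPKM, and only Inhba and Fst overlapped. Among all 16081 listed genes, Gdf15 ranked 6589, 6830 and 6587 by FPKM under DMSO, and under SD70 it ranked 654, 581 and 452. Tgfb1 ranked from 2443 to 2861 with DMSO and from 3168 to 3731 with SD70.

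Of the superfamily ligands on the lists used here, Gdf15 and Tgfb1 together made up most of the mRNA in every sample. The FPKM of the 19 listed ligands summed to 59.0, 55.2 and 53.2 in the DMSO samples, of which Gdf15 made up 17.5%, 17.4% and 19.2% and Tgfb1 62.6%, 57.8% and 60.5%. In the SD70 samples the sums were 152, 172 and 202, with Gdf15 at 78.3%, 77.1% and 82.5% and Tgfb1 at 16.0%, 17.2% and 12.8%. Gdf15 was thus the minor of the 2 main ligands in each DMSO sample and the major one in each SD70 sample. Without Gdf15 the sum was 45.7 ± 2.88 FPKM with DMSO and 35.9 ± 3.27 with SD70 (SD, n = 3 per group). Among these 19 ligands the next in every sample was Tgfb3. The 19 were chosen by name, without the GDNF family. Artn, a ligand of that family, averaged 70.7 normalized counts with DMSO and 378 with SD70. The shares and sums hold for the 19 only.

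**Figure D3:**
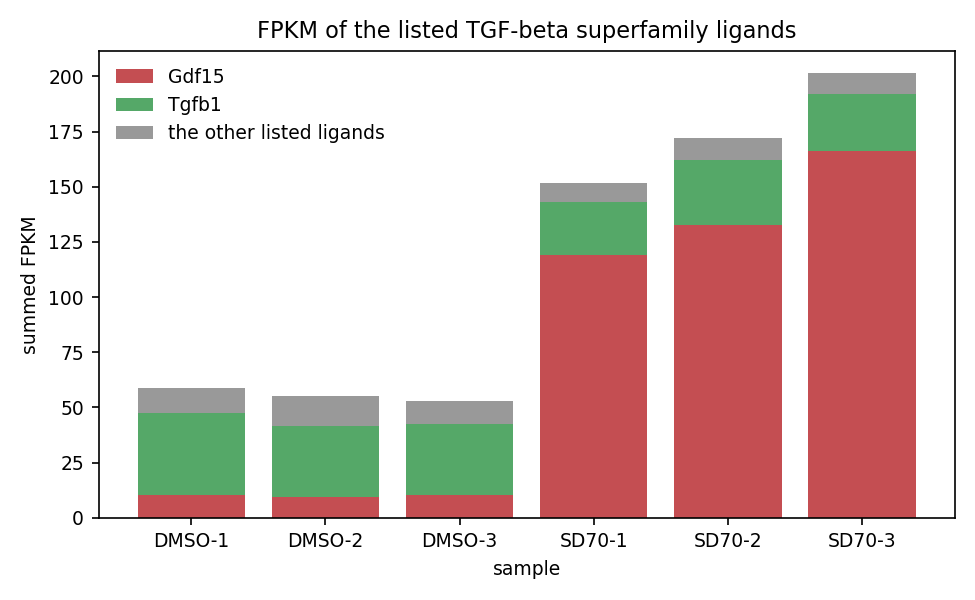
Summed FPKM of the 19 TGF-beta superfamily ligands on the lists used here (vertical axis) in each sample (horizontal axis). The bars are split into Gdf15 (red), Tgfb1 (green) and the other listed ligands (grey). Gdf15 takes 17.4% to 19.2% of the bar in the DMSO samples and 77.1% to 82.5% in the SD70 samples.

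The genes with the pattern most like Gdf15 were Atf3, Chac1, Cass4, Csf2 and Ccl20. Likeness was the root mean square difference of log2 normalized counts over the 6 samples, each gene centred on its own mean, among 9623 genes with a mean of at least 100 normalized counts. Atf3, a stress-induced transcription factor, was nearest at 0.0687, with 272 to 295 normalized counts under DMSO and with 3443, 3790 and 4173 under SD70. Like Gdf15, Atf3 was highest in SD70 replicate 3 and lowest in SD70 replicate 1, as were Chac1 and Cass4 but not Csf2 and Ccl20. Chac1, which breaks down glutathione, followed at 0.191, the adhesion scaffold gene Cass4 at 0.255, and the cytokine genes Csf2 at 0.380 and Ccl20 at 0.382. The measure depends mostly on the size of the difference between the groups, and the log2 fold changes were 3.74 for Atf3, 3.88 for Chac1, 3.46 for Cass4, 4.46 for Csf2 and 3.08 for Ccl20.

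**Figure D4:**
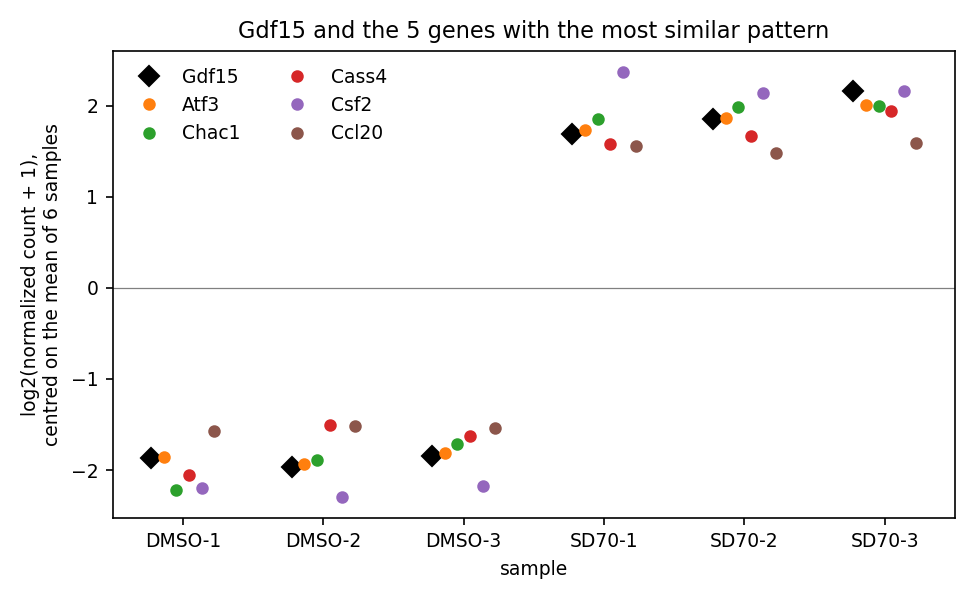
Log2 normalized counts (vertical axis, each gene centred on its mean over the 6 samples) of Gdf15 (black diamonds) and of the 5 genes with the smallest root mean square difference from it, by sample (horizontal axis). Atf3 (0.0687) has the smallest difference from Gdf15 over the 6 samples.

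Several transcription factors known to act on Gdf15 or Inhbe changed as well. Of the 8 on the list, 7 were tested, 6 were higher and 1 lower at the adjusted p-value under 0.01, and 5 were called, all higher. That is 100.0% and 71.4% of those tested, beside 49.9% and 5.90% of all genes (median log2 fold change 1.04, against -0.00432 for all genes tested). The list was drawn up with the rises of Atf3 and of the stress response known, so it is not independent evidence of a direction. Atf4, the main factor of the integrated stress response, rose from 7829 ± 1005 to 31299 ± 703 normalized counts (SD, n = 3 per group; log2 fold change 2.00, adjusted p = 1.57e-13 from edgeR). Ddit3, which encodes CHOP, rose by 2.66 on the log2 scale (adjusted p = 2.37e-28) and Atf3 by 3.74 (adjusted p = 3.72e-29). Trp53, which encodes p53, had a log2 fold change of 1.04 (adjusted p = 1.35e-16), and Cebpb, a C/EBP family member, of 1.00 (adjusted p = 5.22e-09). Both sat at the fold threshold, and of the 13 alternatives Trp53 was called in 11 and Cebpb in 6. Trp53 dropped under it without SD70 replicate 3 (0.96), and Cebpb without DMSO replicate 1 (0.92), SD70 replicate 2 (0.97) or SD70 replicate 3 (0.94). Trp53 was also not called on log2(FPKM + 1), and Cebpb on either FPKM scale, with no filter on low counts or with at least 10 counts in every sample. Nfe2l2, which encodes NRF2, rose by 0.53 (adjusted p = 2.12e-11). Sp1 had a log2 fold change of -0.17 (adjusted p = 0.00491), which missed the threshold without DMSO replicate 1 (adjusted p = 0.0441), SD70 replicate 1 (0.0236) or SD70 replicate 2 (0.0159). Egr1 had 1 read in 1 SD70 library and 0 in the other libraries.

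The other genes of the pathway were described by role, each list without the 10 members. Of 132 genes on 7 lists, 103 had a row and 74 were tested. At the adjusted p-value under 0.01 from edgeR, 22 were higher and 23 lower, and with the fold threshold 8 were called, 4 higher and 4 lower. That is 60.8% and 10.8% of the genes tested on these lists, beside 49.9% and 5.90% of all genes, and the median log2 fold change was -0.05.

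The receptor genes of GDF15 were close to undetected. Gfral had 1 read in SD70 replicate 3 and 0 in the other libraries, and Ret had at most 3 reads in any library. Among the other ligands, 13 of 26 were listed and only Inha and Gdf11 were tested. Neither passed (1 of 2 at an unadjusted p under 0.05, 0 by DESeq2), and Gdf11, a relative of myostatin, had 87.5 ± 15.2 and 65.2 ± 2.58 normalized counts (SD, n = 3 per group; adjusted p = 0.0205 from edgeR, and 0.00626 without DMSO replicate 3).

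Of 14 receptor and co-receptor genes tested, 3 were higher and 4 lower at the adjusted p-value under 0.01, which is 50.0% beside 49.9% of all genes, and 0 were called with the fold threshold by edgeR or DESeq2 (1, Tgfbr3l, passed that fold at an unadjusted p under 0.05). The 2 activin type II receptors diverged. Acvr2b fell from 524 ± 19.3 to 310 ± 3.84 normalized counts (log2 fold change -0.76, adjusted p = 1.32e-10 from edgeR). Acvr2a rose from 408 ± 30.8 to 509 ± 40.9 (0.32, adjusted p = 7.77e-04), which missed the adjusted p-value threshold without DMSO replicate 2 (adjusted p = 0.0162) or SD70 replicate 3 (0.0133) and reached at most 0.0218 over the 13 alternatives. Amhr2, the receptor of anti-Müllerian hormone, fell by 0.75 on the log2 scale (adjusted p = 8.58e-05), and the BMP co-receptor gene Rgmb by 0.66 (adjusted p = 3.82e-08). The TGF-beta receptors Tgfbr1 and Tgfbr2 had log2 fold changes of -0.08 and -0.09 (adjusted p = 0.275 and 0.213).

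Among 10 secreted antagonists tested, 1 was higher and 3 lower (40.0%, beside 49.9% of all genes), and 0 were called with the fold threshold, also at an unadjusted p under 0.05 (0) or by DESeq2 (0). Grem1, an antagonist of BMPs, rose from 1099 ± 58.1 to 2070.2 ± 217 normalized counts (SD, n = 3 per group; log2 fold change 0.91, adjusted p = 7.29e-13 from edgeR). Wfikkn2, which binds GDF11 and myostatin, fell by 0.85 (adjusted p = 2.26e-04), and Fstl1, a follistatin relative, by 0.59 (adjusted p = 5.26e-09). The TGF-beta-binding proteoglycan gene Dcn had a log2 fold change of -0.19 (adjusted p = 0.00719), and its largest adjusted p with 1 sample left out was 0.0421, without SD70 replicate 2. It also missed without DMSO replicate 1 (0.0270), DMSO replicate 2 (0.0247) and SD70 replicate 3 (0.0152).

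Of 11 genes for the cutting, storage and release of ligands, 2 were higher and 4 lower (54.5%, beside 49.9% of all genes), and 0 passed the fold threshold, also at an unadjusted p under 0.05 (0) or by DESeq2 (0). Fbn1, the microfibril protein to which latent complexes attach, rose from 298 ± 9.97 to 557 ± 16.6 normalized counts (SD, n = 3 per group; log2 fold change 0.90, adjusted p = 1.89e-12 from edgeR). The membrane protease gene Mmp14 rose by 0.48 (adjusted p = 2.39e-10). The integrin subunit gene Itgav, whose product helps release active TGF-beta, fell by 0.64 on the log2 scale (adjusted p = 5.19e-13), and Ltbp3, which holds latent TGF-beta, by 0.38 (adjusted p = 9.09e-07). Furin, the convertase that cuts many ligand precursors, fell by 0.31 (adjusted p = 7.05e-05).

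All 23 SMAD genes and SMAD regulators were tested, 11 were higher and 4 lower (65.2%, beside 49.9% of all genes, of which 25.8% higher and 24.2% lower), and 0 passed the fold threshold, also at an unadjusted p under 0.05 (0) or by DESeq2 (0). Zfyve9, which presents SMAD2 and SMAD3 to the receptors, rose from 1027 ± 53.3 to 1814 ± 74.4 normalized counts (SD, n = 3 per group; log2 fold change 0.82, adjusted p = 1.59e-14 from edgeR). The related corepressor genes Tgif1 and Tgif2 moved apart, with log2 fold changes of 0.77 (adjusted p = 5.81e-15) and -0.80 (adjusted p = 5.88e-11). So did the ubiquitin ligase genes Smurf1 and Smurf2, with 0.51 (adjusted p = 9.54e-10) and -0.51 (adjusted p = 8.38e-10). Smad3 rose by 0.42 (adjusted p = 7.05e-08).

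The genes that TGF-beta or activin are known to induce did not move one way. Of 13 tested, 6 were higher and 6 lower at the adjusted p-value under 0.01, and 5 were called, 3 higher and 2 lower (median log2 fold change -0.06). These are 92.3% and 38.5% of the list, beside 49.9% and 5.90% of all genes. Snai2, a transcription factor of mesenchymal cells, rose from 749 ± 17.7 to 3453 ± 349 normalized counts (SD, n = 3 per group; log2 fold change 2.20, adjusted p = 3.52e-23 from edgeR), while its relative Snai1 fell by 1.11 on the log2 scale (adjusted p = 1.73e-10). Junb, an AP-1 subunit, rose by 1.22 (adjusted p = 3.10e-19), and the repressor gene Bhlhe40 fell by 1.17 (adjusted p = 1.22e-07). Tgfbi was called at 1.17 (adjusted p = 9.53e-04) from few reads, and not without DMSO replicate 3 (1.00, adjusted p = 0.0102). Smad7, the feedback inhibitor, had 115 ± 10.5 and 111 ± 4.10 normalized counts (adjusted p = 0.718). Of 5 BMP targets tested, 3 were called (60.0%, beside 5.90% of all genes). Id3 rose by 1.99 (adjusted p = 1.03e-16), Id2 fell by 1.66 (adjusted p = 5.33e-15) and Msx1 by 1.17 (adjusted p = 2.55e-05).

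**Figure D5:**
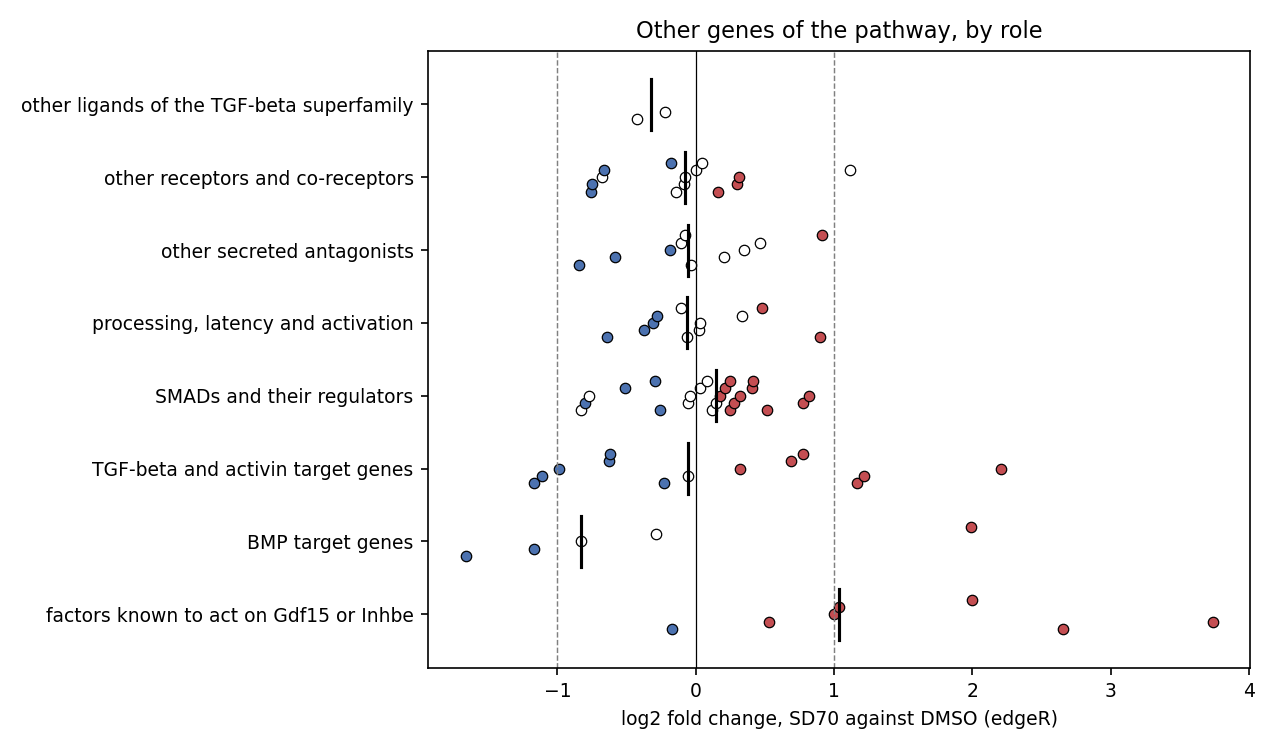
Log2 fold changes (horizontal axis, SD70 against DMSO) of the tested genes of the pathway, with 1 row per role and the median as a black line. Filled points passed an adjusted p-value under 0.01 from edgeR (red higher, blue lower), open points did not, and the dashed lines mark the fold threshold. Apart from 1 open point among the receptors, the points outside the dashed lines are target genes and transcription factors.

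The chromosomal neighbours of Gdf15 and Inhbe within 100 kb were examined after the values of both genes had been seen. Of 15 annotated neighbours of Gdf15, 6 were tested, and 0 were called, beside 5.90% of all genes. On the adjusted p-value alone 1 was higher and 1 lower, where 49.9% of all genes passed. At the adjusted p-value under 0.01 from edgeR, Jund rose by 0.40 on the log2 scale (adjusted p = 4.58e-07) and Ell fell by 0.31 (adjusted p = 1.28e-04). Pgpep1, 13966 bases from Gdf15, had a log2 fold change of -0.06 (adjusted p = 0.451). Of 12 neighbours of Inhbe, 8 were tested and 2 were called, beside 5.90% of all genes. They were Ddit3, 53111 bases away, and Gli1, 7823 bases away, whose reads numbered 19, 13 and 16 under DMSO but 2, 4 and 6 under SD70 (log2 difference -1.87, adjusted p = 3.69e-04 from edgeR). The methionyl-tRNA synthetase gene Mars1 (Mars in the files), 37616 bases away, passed the adjusted p-value alone and rose by 0.36 on the log2 scale (adjusted p = 1.03e-06 from edgeR). Of the 8 tested neighbours of Inhbe, 2 were higher and 1 lower at the adjusted p-value, beside 49.9% of all genes.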

How the data were processed

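The authors aligned clean BGISEQ-500 reads to GRCm38.p6 with HISAT, and the submitters' processing notes name StringTie 1.3.3b and list the build mm8, which was not used here. The authors deposited per gene and sample an expected count (not normalized, 8.84% to 9.28% of values not whole) and a value taken as FPKM. The gene length that this value implies was not always the same between samples. For Inhba, 1 read gave 0.04 in DMSO replicate 2 and 0.02 in SD70 replicate 3. The counting tool is not given in the sources used here.

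Expected counts were rounded, filtered by filterByExpr, scaled by TMM and tested by glmQLFit (robust) and glmQLFTest in edgeR 4.0.16 (R 4.3.3), with Benjamini-Hochberg adjustment over 11552 genes. A gene was called at adjusted p under 0.01 and a log2 change of 1 or more in size. All 6 samples entered the fit. On simulated data edgeR called 199 of 200 genes with a log2 fold change of 2, and 0 unchanged genes, among 11541. These data followed the count distribution that edgeR assumes, with 1 setting of variability for all genes. They check the code and do not measure error rates in the real samples. Having 3 samples per group limits the precision, as does, for scarce genes, counting error, which alone the interval and the limit of 3 counts cover.

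Members and lists were chosen with earlier results of these data known. Named were all members, up to 4 genes of each list past the adjusted p with the largest change and a mean of at least 20 normalized counts, Gfral, Ret, all 8 factors, and the 5 genes most like Gdf15. Inha, Inhbc, Gdf11, Artn, Prss57, Tgfbr1, Tgfbr3l, Tgfbr2, Furin, Smad3, Smad7, Smurf2, Tgfbi and the neighbouring genes were named after their values were seen. Of the genes on more than 1 list, 4 in number, each was counted once in the total. Alternatives were DESeq2 size factors, other filters, a replicate block, 1 sample left out, DESeq2 1.42.0, limma 3.58.1 on log2(FPKM + 1) and log2(FPKM + 0.1), and other thresholds. Protein sequences were not used here.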

Additional observations from a re-analysis of the deposited data

How the results depend on the processing

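The 7 members kept their direction in every alternative that could test them. Inhbe and Tgfb2 could not be tested with at least 10 counts in every sample. On log2(FPKM + 1), a scale that understates changes of scarce genes, the log2 fold change was 0.60 for Inhbe and 0.077 for Tgfb2, and on log2(FPKM + 0.1) it was 2.36 for Inhbe. With 1 sample left out, Inhbe ranged from 3.20 to 7.25, the last without DMSO replicate 1. Over all genes, 283 were called on log2(FPKM + 1) and 5767 with no fold minimum, against 681. On the pathway lists the numbers were 5 and 45, against 8, and 7 to 9 with 1 sample left out. The other alternatives stayed within 1.5 times the main counts, from 542 to 767 over all genes and from 7 to 9 on the lists. Tgfbi was also not called by DESeq2 or by limma on either FPKM scale, and Snai1 and Msx1 were not called on log2(FPKM + 1).

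With the replicate block, 692 genes were called over all genes and 8 on the lists, and Gdf15 had a log2 fold change of 3.81. The labels give both groups the numbers 1 to 3 without saying that equal numbers were handled together. Across 9623 genes with a mean of at least 100 normalized counts, samples of equal number deviated from their group means with r from 0.172 to 0.281, but across 8668 genes with at least 200 with r from -0.03 to 0.153, so the numbers were not taken to pair the samples.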
